A study of Homo sapiens with 6 samples.

Results

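The golgins are long coiled-coil proteins that reach out from the Golgi apparatus and catch arriving vesicles, and 10 genes that encode them were followed: GOLGB1, GOLGA5, GOLGA2, TRIP11, GOLGA3, TMF1, GOLGA1, GOLGA4, GCC1 and GCC2. They were taken by name as the Golgi coiled-coil tethers around GOLGB1, and their Ensembl identifiers were matched to symbols through the gene annotation. They were 10 of the 57905 genes in the count files, and all 10 passed the filter on low counts that kept 14398 genes for testing. The comparison asked which transcripts lost counts when H929 RNA met IRE1, the unfolded protein response sensor whose RNase domain cuts XBP1 mRNA. H929 is a human multiple myeloma cell line, and its purified total RNA, not living cells, was the substrate. Every reaction held 5 µg of this RNA in one cleavage buffer for 1 h at 37 °C, and 5 min at 95 °C stopped it. The 3 IRE1-treated samples also held 2 µg of recombinant human IRE1 (ERN1, residues 467 to 977), while the 3 control samples held no enzyme. Stranded libraries were then made from poly(A) RNA, each sequenced in a lane of its own, so lane and library cannot be told apart. The 6 samples were described as biological replicates with no further word on separate cultures, so the p-values measure only the spread between these samples, which may be technical.

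The counts on genes were 25678499, 22433916 and 21144515 in controls 1 to 3, and 19615715, 21525644 and 23041598 in IRE1-treated replicates 1 to 3. The golgins together took 0.0512, 0.0514 and 0.0480% of these counts in the controls and 0.0390, 0.0426 and 0.0462% in the IRE1-treated samples. All 8 plasma cell markers examined (SDC1, CD38, TNFRSF17, IRF4, PRDM1, XBP1, MZB1 and SLAMF7) passed the filter, XBP1 with the most counts, and their summed normalized counts were 169011, 166074 and 168197 in the controls and 171485, 166359 and 162875 in the IRE1-treated samples, with PRDM1 lower and TNFRSF17 and MZB1 higher in the test. Of 13 markers of T cells, B cells, myeloid cells, epithelium, fibroblasts and red cells, 9 stayed under 10 counts in every library, and COL1A2 had 0. CD3E had the most counts of these 13 (890 to 1063), CD3D and CD2 reached at most 1 and 7, and the summed normalized counts of the 13 were 976, 1004 and 973 in the controls and 1257, 1022 and 1046 in the IRE1-treated samples. None of the 3 markers among them that were tested passed, and their part in the golgin values was not tested.

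Golgins are fixed to the Golgi by their C-terminal end, some through a membrane span and others through a domain that binds a small GTPase, and the rest of the molecule is a rod that extends into the cytoplasm. Each kind sits at its own level of the stack and selects vesicles by origin, so that cargo leaving the endoplasmic reticulum, moving between cisternae or returning from endosomes meets different tethers. Plasma cells and myeloma cells pass large amounts of immunoglobulin through this organelle.

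Known IRE1 substrates served as a reference for the reaction. BLOC1S1, a subunit of complexes that position lysosomes, had 607, 584 and 651 normalized counts in controls 1 to 3 (counts scaled by library size and TMM factor) and 276, 230 and 212 in IRE1-treated replicates 1 to 3. No IRE1-treated value came near a control value. BLOC1S1 fell by 1.37 on the log2 scale (SE 0.0950, 3 against 3, adjusted p = 1.25e-06 from the quasi-likelihood test of edgeR, with the Benjamini-Hochberg method over all tested genes). BLOC1S1 shares 493 of 1655 exonic bases on the same strand with the protein-coding gene ENSG00000258311, so some of its reads could belong elsewhere. ENSG00000258311 had a mean of 4.22 normalized counts. XBP1 had 61124, 58538 and 59921 normalized counts in the controls and 57376, 56865 and 54174 in the IRE1-treated samples, a log2 fold change of -0.09 (SE 0.0436, edgeR adjusted p = 0.143). It passed in 4 of 16 alternatives, with -0.17 when scaled by library size only (edgeR adjusted p = 0.00371) and -0.20 with the trend of length and GC removed (0.000552), within a range of 0.000552 to 0.385. The values are counts over whole genes, so reads on both sides of a cut enter the same sum, and exons were not analysed here.

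The golgin transcripts were present at moderate levels in the control libraries. Per length, as TPM (counts per base of transcript, scaled to an equal total in every library), GOLGA5 and GOLGA2 led with control means of 36.0 ± 1.58 and 35.1 ± 0.660 (SD, n = 3). GOLGB1 (15.9 ± 1.43), GOLGA4 (14.6 ± 1.37) and GOLGA3 (12.8 ± 0.522) followed, then GCC1 (10.7 ± 0.783) and TMF1 (10.0 ± 0.378). GCC2 (7.26 ± 0.476), GOLGA1 (7.25 ± 0.363) and TRIP11 (4.71 ± 0.373) had the lowest per-length levels. Neighbours in this order overlapped in their control values, except that GOLGA2 stood clear of GOLGB1, GOLGA3 of GCC1, TMF1 of GCC2, and GOLGA1 of TRIP11. Over all 6 libraries only the steps from GOLGA2 to GOLGB1 and from GOLGA1 to TRIP11 were free of overlap. Among all tested genes with a length, the golgins ran from percentile 35.7 (TRIP11) to percentile 76.0 (GOLGA5) of the per-length level.

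**Figure D1:**
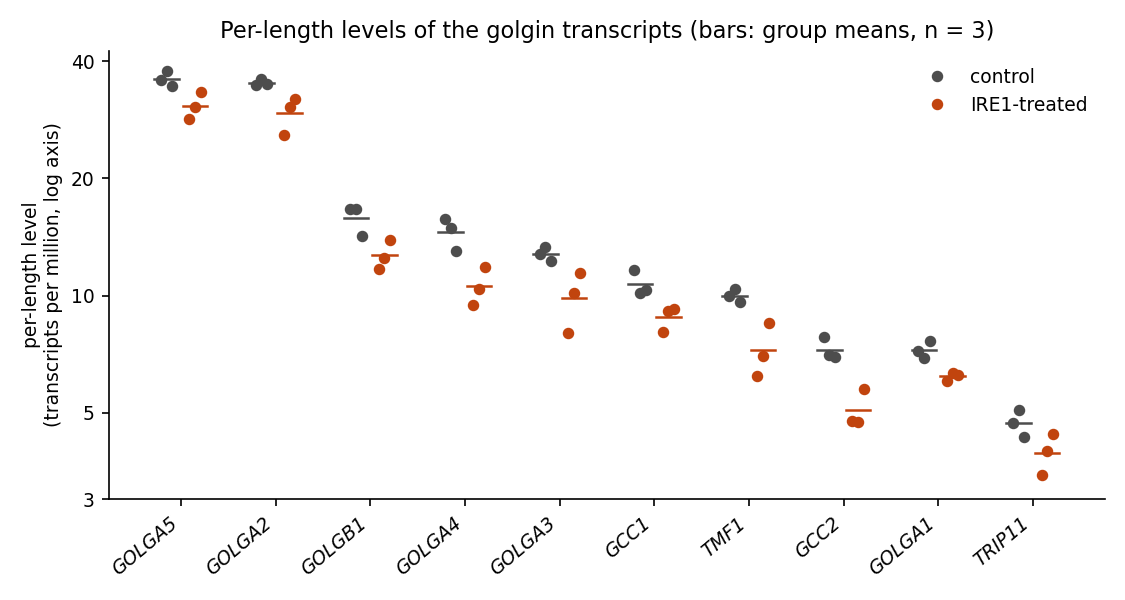
Per-length level of each golgin (vertical log axis, TPM, bars for the mean of 3 libraries) in control and IRE1-treated libraries. GOLGA5 and GOLGA2 stand above the rest at control means of 36.0 and 35.1, and TRIP11 is lowest at 4.71.

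The plot of per-length levels shows every IRE1-treated mean below its control mean. On that scale each library sums to the same total after division by length, so the golgin levels there also carry the shift between short and long transcripts that is described further on. All tests were made on the counts, not on per-length levels.

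GOLGA4, GCC2 and TMF1 were the golgins that fell in the IRE1-treated samples, to 81.8, 78.9 and 81.3% of their control means in normalized counts. All 10 golgins had a negative log2 fold change (median -0.13, beside 0.00 over all tested genes), but with the trend with transcript length and GC content taken out of each library GOLGB1, GOLGA1, GOLGA3 and TRIP11 turned positive and the median was -0.03. In edgeR's test 3 of 10 golgins were lower, beside 12.4% of all tested genes, and 0 of 10 were higher, beside 10.3%. The count of 0 higher also held at an unadjusted p under 0.05 in edgeR, in DESeq2 and in limma. Every IRE1-treated value lay below every control value in 4 of 10 golgins (GOLGA3, GOLGA4, GCC2 and TMF1), beside 20.0% of all tested genes. With the trend of length and GC taken out, edgeR called 0 golgins lower (background 4.52%), also at an unadjusted p under 0.05 (background 10.6%), and 2 higher (background 5.96%), GOLGB1 and TRIP11, though TRIP11 no longer passed when the replicate block was added (edgeR adjusted p = 0.0514). With library size as the only scaling, 5 golgins were lower (background 18.0%), GOLGB1 and GOLGA3 being added. Without control 1, edgeR called 0 golgins lower or higher (background 6.68% and 4.88%), though 4 were lower at an unadjusted p under 0.05 (background 14.8%). Without IRE1-treated replicate 3 it called 5 lower (background 15.3%), the same genes as with library size, and 0 higher (background 14.4%). With a list of 10, these counts differ from the background by a few genes, and whether the golgins as a group stood apart was not tested. The substrate was bulk RNA, so for any difference between cultures before the reaction less RNA per cell and fewer cells with a transcript cannot be told apart, and the reaction itself, on purified RNA, could alter neither.

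**Figure D2:**
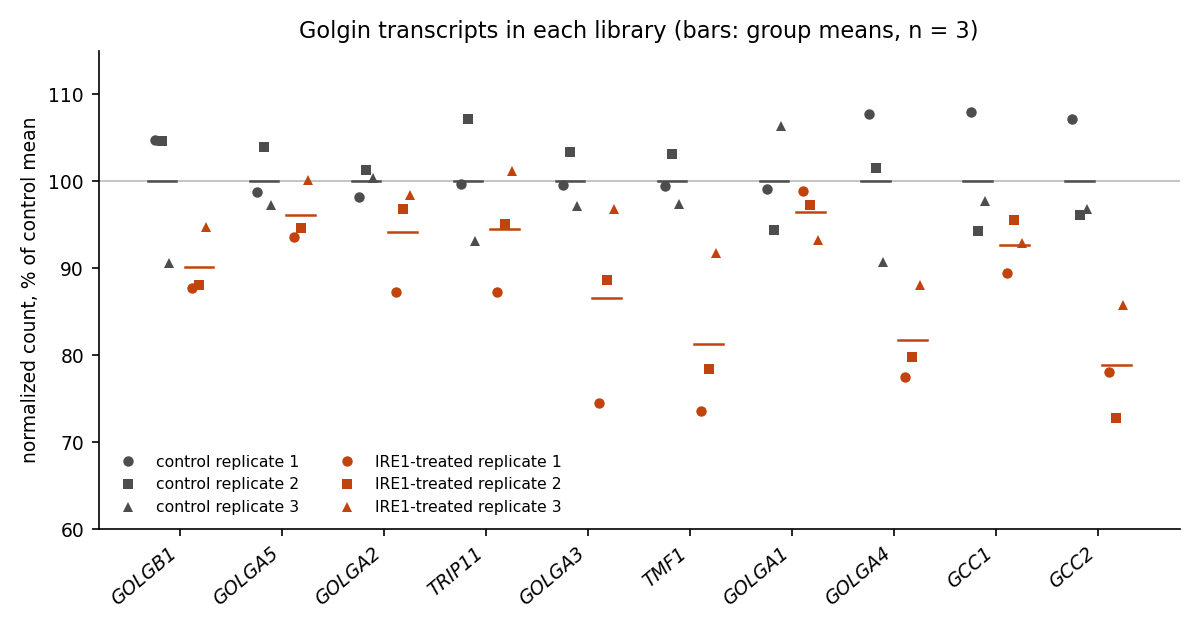
Normalized count of each golgin in each library as a percentage of its control mean (vertical axis, starting at 60%), with bars for the means of 3 libraries. All 10 IRE1-treated means lie under 100%, a direction that turned for GOLGB1, GOLGA1, GOLGA3 and TRIP11 once the trend with length and GC was removed, and GCC2 has the lowest mean at 78.9%.

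The plot of normalized counts by library gives the order of the samples for each golgin. Circles of IRE1-treated replicate 1 are lowest for all golgins but GOLGA1 and GCC2, and triangles of IRE1-treated replicate 3 are the highest IRE1-treated values for all but GOLGA1 and GCC1.

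The membrane-anchored golgins were taken first. GOLGB1 (ENSG00000173230, chr3:121382046-121468813, minus strand, GRCh37) encodes giantin, the longest golgin, which spans the membrane at the rims of the cisternae. It had 2227, 2225 and 1928 normalized counts in controls 1 to 3 and 1865, 1874 and 2015 in IRE1-treated replicates 1 to 3. Controls 1 and 2 were high, IRE1-treated replicates 1 and 2 were low, and the groups overlapped because IRE1-treated replicate 3 exceeded control 3. The means were 2127 ± 172 and 1918 ± 84.6 normalized counts (SD, n = 3), a log2 fold change of -0.15 (SE 0.0609) that missed the threshold (edgeR adjusted p = 0.0904, exact two-sided permutation p = 0.2, where 0.1 is the smallest that 3 against 3 can give). The estimate depended on the scaling: with library size only it was -0.22 (edgeR adjusted p = 0.0240), and with the trend of length and GC removed it was 0.15 (edgeR adjusted p = 0.0369), within a range of 0.0240 to 0.326 over 16 alternatives. GOLGB1 also passed as lower without control 3 (edgeR adjusted p = 0.0297) and without IRE1-treated replicate 3 (0.0290). GOLGA5 (ENSG00000066455, chr14:93260650-93306292, plus strand), the gene of golgin-84, a tether of vesicles that move between cisternae, had 1228, 1293 and 1210 normalized counts in the controls and 1164, 1177 and 1246 in the IRE1-treated samples. Its groups overlapped, IRE1-treated replicate 3 lying inside the control range, and the log2 fold change was -0.06 (SE 0.0558, edgeR adjusted p = 0.520). An annotated lncRNA (ENSG00000288868) lies opposite 765 exonic bases of GOLGB1, and GOLGA5 has 1 named pseudogene, so some of their reads could belong elsewhere.

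IRE1 cuts RNA at the consensus CUGCAG, or CCGCAG in one XBP1 site, when the motif sits in a hairpin loop. Both motifs were searched on the sense strand of 1 transcript for each gene, and a site was counted as in a loop when the third base of the motif was unpaired in a predicted hairpin loop, 5 to 11 bases long, on a stem of 3 pairs or more. GOLGB1 held 14 CUGCAG in 11186 bases, 2 of them in a loop, and 1 CCGCAG that was not. The loop sites lay in coding sequence of exon 9 (chr3:121435840-121435845) and exon 14 (chr3:121409597-121409602) of 22, and they are shown with both sites of unspliced XBP1 (chr22:29192138-29192143 and chr22:29192112-29192117, minus strand) so that the letters around the motif can be compared. All are reference sequence of GRCh37 as RNA, 5′ to 3′, with the motif in capitals.
GOLGB1 exon 9: uccuuccauaauCUGCAGgaagaaaugcau
GOLGB1 exon 14: ggaagcagagguCUGCAGcucagccuucca
XBP1 first site: ggucugcugaguCCGCAGcacucagacuac
XBP1 second site: cuacgugcaccuCUGCAGcaggugcaggcc

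The predicted loops had 10 and 8 bases in GOLGB1, and 6 and 7 bases in XBP1. In BLOC1S1, of 3 CUGCAG only that in exon 2 of 4 was in a predicted loop, those in exon 1 and exon 4 were not, and neither was its 1 CCGCAG. The paper cites earlier work for an IRE1 cut of BLOC1S1 at a numbered guanine. Of these motifs, that in exon 4, at position 448 of the transcript searched, lies nearest to that number. Whether the numbering of both transcripts matches was not tested. Which of these sites was cut was not tested, so a site outside a predicted loop cannot be taken as uncut. The qRT-PCR primers designed for GOLGB1 matched exon 11, at chr3:121421412-121421434 (forward) and chr3:121421332-121421351 (reverse), for a product of 103 bases between the exons that hold these loop sites. They are shown because they mark the stretch of GOLGB1 read by that assay, whose values were not analysed here. The paper lists GOLGB1 among its selected putative IRE1 substrates, chosen by exon usage. It reports that qRT-PCR of the 5′ region gave significantly less signal after IRE1 for every selected candidate. Those are measures of exons and of the 5′ part, unlike the counts over the whole gene given here.
GOLGB1 forward primer: tgaggagaatattgcttctttgc
GOLGB1 reverse primer: ctcagctttcagctcctcca

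The golgins of the cis face gave small differences. GOLGA2 (ENSG00000167110, chr9:131018108-131038305, minus strand) encodes GM130, which binds the tether p115 on incoming vesicles. It had 1806, 1863 and 1846 normalized counts in the controls and 1605, 1781 and 1810 in the IRE1-treated samples. IRE1-treated replicate 1 was lowest, and IRE1-treated replicate 3 passed control 1, so the groups overlapped. TRIP11 (ENSG00000100815, chr14:92432335-92507240, minus strand) encodes GMAP-210, which binds strongly curved membranes and captures small vesicles. It had 563, 605 and 526 normalized counts in the controls and 493, 537 and 571 in the IRE1-treated samples, with overlapping groups. The log2 fold changes were -0.08 for GOLGA2 (SE 0.0548) and -0.08 for TRIP11 (SE 0.0783), and neither passed (edgeR adjusted p = 0.298 and 0.515). For TRIP11 the direction turned with the trend of length and GC removed, to 0.22 (edgeR adjusted p = 0.0292, range 0.0292 to 0.883 over 16 alternatives). GOLGA2 has 10 named pseudogenes and shares short stretches with other genes, so its counts are uncertain to that degree. GOLGA2 held 11 CUGCAG with 1 in a loop, and TRIP11 held 10 with 2 in loops.

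GOLGA3 and TMF1 are peripheral golgins. GOLGA3 (ENSG00000090615, chr12:133345488-133405729, minus strand) encodes golgin-160, which links Golgi membranes to the motor dynein. It had 1367, 1420 and 1334 normalized counts in the controls and 1023, 1217 and 1329 in the IRE1-treated samples. The controls were close together and the IRE1-treated samples were spread out, with replicate 3 just below control 3, so the groups did not overlap. The means were 1374 ± 43.2 and 1190 ± 154 normalized counts (SD, n = 3), a log2 fold change of -0.20 (SE 0.0753) that missed the threshold (edgeR adjusted p = 0.0628). Without IRE1-treated replicate 3 the log2 fold change of GOLGA3 was -0.29 and passed (edgeR adjusted p = 0.00236), with library size only it was -0.28 and passed (edgeR adjusted p = 0.0314), and with the trend of length and GC removed it was 0.02 (edgeR adjusted p = 0.913), within a range of 0.00236 to 0.955 over 16 alternatives.

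TMF1 (ENSG00000144747, chr3:69068978-69101490, minus strand), whose product binds RAB6 on Golgi membranes, had 822, 852 and 805 normalized counts in the controls and 608, 648 and 759 in the IRE1-treated samples. All 3 IRE1-treated values lay below all 3 controls, and IRE1-treated replicate 3 was again the nearest to them. TMF1 fell from 826 ± 23.6 to 672 ± 77.9 normalized counts (SD, n = 3), a log2 fold change of -0.30 (SE 0.0767, edgeR adjusted p = 0.0120, exact two-sided permutation p = 0.1). This call was lost without control 1 (edgeR adjusted p = 0.0505), without control 2 (0.0660) and without IRE1-treated replicate 2 (0.0674). With the trend of length and GC removed the log2 fold change of TMF1 was -0.06 (edgeR adjusted p = 0.558, range 0.000202 to 0.592 over 16 alternatives). GOLGA3 shares 125 exonic bases on the same strand with CHFR and 484 on the opposite strand with the pseudogene RPS11P5, and TMF1 faces the lncRNA EOGT-DT over 611 exonic bases and has 1 named pseudogene. TMF1 held 3 CUGCAG, 1 of them in a predicted loop of 10 bases in exon 8 of 17 (chr3:69087771-69087776). GOLGA3 held 33 CUGCAG, the most of the 10 golgins, with 5 in loops.

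The golgins with a GRIP domain, the C-terminal module that binds ARL1 in GOLGA1 and GOLGA4, act at the trans-Golgi network, where carriers from endosomes arrive. GOLGA4 (ENSG00000144674, chr3:37284682-37408370, plus strand), the gene of golgin-245, had 1468, 1383 and 1237 normalized counts in the controls and 1056, 1087 and 1200 in the IRE1-treated samples. The highest IRE1-treated value, that of replicate 3, was just below the lowest control, so the groups did not overlap. GOLGA4 fell from 1363 ± 117 to 1114 ± 75.5 normalized counts (SD, n = 3), a log2 fold change of -0.29 (SE 0.0690, edgeR adjusted p = 0.00728, exact two-sided permutation p = 0.1). Leaving out control 1 ended the call (edgeR adjusted p = 0.0638), and removing the trend of length and GC left -0.04 (edgeR adjusted p = 0.702, range 5.2e-05 to 0.769 over 16 alternatives). GOLGA4-AS1 lies opposite 432 exonic bases of GOLGA4 and had a mean of 0.660 normalized counts.

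GCC2 (ENSG00000135968, chr2:109065563-109125871, plus strand) encodes GCC185, a tether for mannose 6-phosphate receptors on their way back from endosomes. It had 645, 579 and 583 normalized counts in controls 1 to 3 and 470, 439 and 517 in IRE1-treated replicates 1 to 3. Control 1 was the highest sample, IRE1-treated replicate 2 the lowest, and a clear gap lay between the groups. GCC2 fell from 602 ± 37.3 to 475 ± 39.3 normalized counts (SD, n = 3), a log2 fold change of -0.34 (SE 0.0794, edgeR adjusted p = 0.00642, exact two-sided permutation p = 0.1). Among the 10 golgins this was the lowest estimate with TMM scaling. Without control 1 the call was lost (edgeR adjusted p = 0.0558), and with the trend of length and GC removed the log2 fold change was -0.11 (edgeR adjusted p = 0.391, range 0.000335 to 0.424 over 16 alternatives). GCC2 is uncertain in a further way: 2393 bases of its transcript, 34.6% of 6909, are nearly identical to RGPD5 and RGPD6, 2182 to 2199 bases to RGPD3, RGPD4 and RGPD8, and 345 to RGPD1 and RGPD2. These 7 genes arose by duplication of a neighbouring gene with part of GCC2. The RGPD genes together had 29.6, 36.7 and 26.8 normalized counts in the controls and 22.8, 19.0 and 38.9 in the IRE1-treated samples, 4.34 to 7.52% of the GCC2 values. Added to GCC2, the sums were 675, 615 and 609 in the controls and 493, 458 and 556 in the IRE1-treated samples, so the groups remained apart in these sums. Reads that aligned to several places, 10.7 to 12.6% of all counts in a library, were not counted on any gene. The sums therefore cannot hold such reads from the shared stretches, and their part was not tested.

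The loop sites of GCC2 lay in coding sequence of exon 6 (chr2:109088354-109088359) and exon 22 (chr2:109116096-109116101) of 23, among 6 CUGCAG in all. GOLGA4, in contrast, held 2 CUGCAG, both in exon 17 of 24 (chr3:37376580-37376585 and chr3:37376601-37376606), and neither was in a predicted loop. The windows are given because GCC2, GOLGA4 and TMF1 were the golgins that passed the test and differed in predicted structure.
GCC2 exon 6: gaaaaagaggccCUGCAGucugaucuucua
GCC2 exon 22: aagaacgucuugCUGCAGuucauuuucuug
TMF1 exon 8: aagaagaacuuuCUGCAGcauuagagaagg
GOLGA4 exon 17, first site: aaaguaagggacCUGCAGacucaacuugag
GOLGA4 exon 17, second site: caacuugaggagCUGCAGaagaaauaccag

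GOLGA1 and GCC1 are the other GRIP-domain golgins. GOLGA1 (ENSG00000136935, chr9:127640554-127710771, minus strand), the gene of golgin-97, had 421, 401 and 452 normalized counts in the controls and 420, 413 and 396 in the IRE1-treated samples. The groups overlapped, with IRE1-treated replicate 3 the only one below all controls, and the log2 fold change was -0.05 (SE 0.0788, edgeR adjusted p = 0.690), or 0.06 with the trend of length and GC removed (edgeR adjusted p = 0.727, range 0.283 to 0.971 over 16 alternatives). GCC1 (ENSG00000179562, chr7:127220682-127233665, minus strand), the gene of GCC88, had 573, 501 and 519 normalized counts in the controls and 475, 507 and 493 in the IRE1-treated samples. IRE1-treated replicate 2 exceeded control 2, and the log2 fold change was -0.11 (SE 0.0756, edgeR adjusted p = 0.322). GOLGA1 shares 886 exonic bases with SCAI on the same strand, and GCC1 lies opposite ARF5 over 405 exonic bases and opposite FSCN3 over 366, so both are uncertain where counting did not use strand or dropped shared reads. GOLGA1 held 8 CUGCAG with 0 in loops, and GCC1 held 10 with 2 in loops.

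Across the 10 golgins there were 100 CUGCAG, or 1.47 per kilobase, beside 0.806 over the 12225 tested protein-coding genes searched in the same way. GOLGA3 alone held 33 of them (3.69 per kilobase), while the golgins that passed as lower had 0.868 (GCC2), 0.436 (TMF1) and 0.256 (GOLGA4) per kilobase. Of the 100 CUGCAG, 15 were in a predicted loop in golgins, beside 15.4% in all. A loop site was found in 7 of 10 golgins, all but GOLGA1, GOLGA4 and GOLGA5, beside 35.4% of all genes and 44.5% of the 7165 genes at least as long as GOLGA5, the shortest golgin. Those 7165 genes had a median length of 4841 bases, beside 6894 for the golgins, so the 44.5% is not matched for length. CCGCAG occurred 6 times in golgins, 0.0883 per kilobase beside 0.216 over the same genes, and 0 times in a loop, beside 14.5% of CCGCAG in all, a difference too small to read with 6 sites. The golgins that passed as lower held 2 (GCC2), 1 (TMF1) and 0 (GOLGA4) loop sites, and GOLGA3, which did not pass, held 5. A motif match describes letters and a predicted fold, and cutting at these sites was not tested.

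Long transcripts had lower relative counts as a class in the IRE1-treated samples, and most golgin transcripts are long. When the 14111 tested genes with a known transcript length were put in 4 equal classes by length, edgeR called 33, 54, 387 and 1288 genes lower from the shortest to the longest class, 0.935% of the shortest and 36.5% of the longest, and it called 955, 342, 105 and 67 genes higher, 27.1% of the shortest and 1.90% of the longest. The median log2 fold changes of these classes were 0.18, 0.07, -0.05 and -0.20. Of the golgins, GOLGA5 was in the second class, GOLGA1, GOLGA2 and GCC1 in the third, and the other 6 in the longest class, where 3 of 6 were lower beside 36.5%. GCC2, TMF1 and GOLGA4 lay below the median of their class at -0.34, -0.30 and -0.29, GOLGA3 was at the median with -0.20, and GOLGB1 and TRIP11, which are the longest golgins at 11186 and 9996 bases, lay above it at -0.15 and -0.08. Spearman's correlation between log2 fold change and transcript length was -0.57 across the 14111 genes and -0.36 across the 10 golgins. Genes are not independent replicates and all share the same 6 libraries, so these correlations are a description only. With GC content the correlation was 0.22 across the genes and 0.49 across the golgins. How much of the golgin differences goes with length was addressed only by the fit with the trend removed, and the cause of the trend was not tested.

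**Figure D3:**
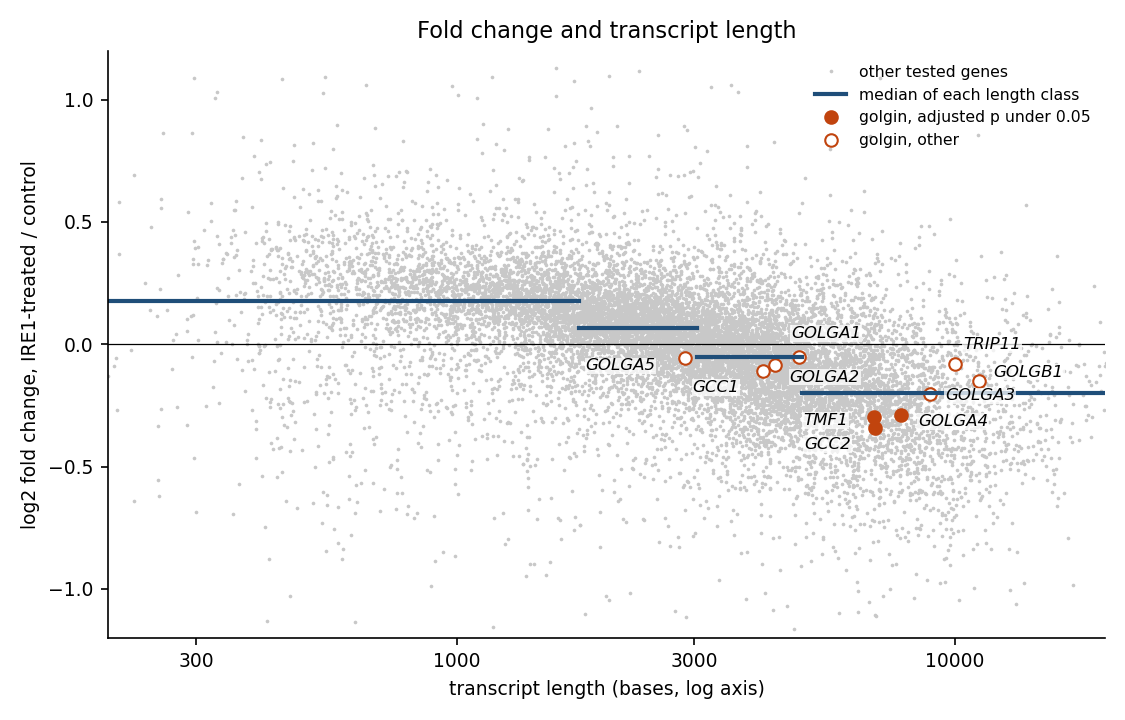
Log2 fold change (vertical axis, IRE1-treated over control, edgeR) against transcript length (horizontal log axis, bases) for golgins and other tested genes, with blue lines for the median of each of 4 length classes. GCC2, TMF1 and GOLGA4 (filled) lie under the line of the longest class at -0.20, GOLGB1 and TRIP11 lie over it, and 59 of 14111 genes fall outside the frame.

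The plot of fold change against length shows the golgins inside the cloud of other genes of like length.

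The same length shift differed in size between libraries. In the longest class the median log2 deviation from the gene mean was 0.12, 0.12 and 0.07 in controls 1, 2 and 3, and -0.16, -0.10 and -0.03 in IRE1-treated replicates 1 to 3. The mean deviation of the 10 golgins was 0.12, 0.10 and 0.04 in the controls and -0.16, -0.09 and -0.0004 in the IRE1-treated samples. IRE1-treated replicate 1 was the lowest library for 8 of 10 golgins, IRE1-treated replicate 2 for GCC2, and IRE1-treated replicate 3 for GOLGA1. Control 2 was the highest library for 5 golgins, control 1 for 4 and control 3 for 1. Summed over the 10 golgins, normalized counts were 11121, 11122 and 10439 in the controls and 9180, 9680 and 10336 in the IRE1-treated samples, so IRE1-treated replicate 3 came close to control 3. Whether the length shift and the golgin values share a source was not tested.

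The genes whose profile over the 6 libraries lay nearest to the golgin mean, among 10292 tested genes with at least 100 normalized counts, were IRAK2, PM20D2, SLC9A8, RTTN and MARCHF6. Their Euclidean distances in log2 units were 0.0151, 0.0361, 0.0378, 0.0416 and 0.0423. Their log2 fold changes lay between -0.19 and -0.16, close to the golgin median of -0.13, and PM20D2 and MARCHF6 passed the test (edgeR adjusted p = 0.0158 and 0.0332). They were chosen for this likeness, so the fold changes are a description.

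Golgins work with other coiled-coil proteins, small GTPases, adaptors, multisubunit tethers and SNAREs, and 73 such partner genes were examined in 7 lists. All 73 were tested: 15 were lower and 8 higher, so 20.5% were lower beside 12.4% of all tested genes, while the share higher was near its background of 10.3%, and the median log2 fold change was -0.04. With the trend of length and GC removed, 4 of 73 partners were lower (BICD2, GOPC, ACBD3 and CLASP2), near the background of 4.52%, and 1 was higher (RAB2A, background 5.96%), RAB2A being named after its value was seen. With the replicate block added to that fit GOPC no longer passed (edgeR adjusted p = 0.0809). The partner count depended on single libraries: 7 were lower and 5 higher without control 1 (background 6.68% and 4.88%). Without control 2, 9 were lower and 5 higher (background 6.82% and 4.38%). Leaving out IRE1-treated replicate 2 gave 8 lower and 6 higher (background 7.42% and 6.09%). Leaving out IRE1-treated replicate 3 gave more, 20 lower and 12 higher (background 15.3% and 14.4%). Like the golgins, the coiled-coil partners and the adaptors leaned lower, at medians of -0.19 and -0.20, while the median was 0.04 for the GTPases, 0.01 for TRAPP, 0.02 for SNAREs, -0.07 for COG and -0.08 for GARP. With the trend of length and GC removed these medians were -0.08 and -0.06 for the coiled-coil partners and the adaptors, and -0.03 for the golgins, of which GOLGB1, GOLGA1, GOLGA3 and TRIP11 were then positive.

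Of 11 other Golgi coiled-coil proteins 6 were lower and 0 higher, beside 12.4% and 10.3% of all tested genes. The 6 fell to 3 without control 1, to 2 with the trend of length and GC removed (BICD2 and GOPC) and to 1 with the replicate block as well (BICD2). At an unadjusted p under 0.05 none was higher in edgeR with TMM, DESeq2 or limma, but 1 was with the trend removed. BICD2, a dynein adaptor that RAB6 brings to the Golgi, had 842, 872 and 791 normalized counts in the controls and 572, 625 and 625 in the IRE1-treated samples. No value overlapped, and BICD2 fell by 0.46 on the log2 scale (SE 0.0671, edgeR adjusted p = 0.000328), with -0.30 and an edgeR adjusted p of 0.00343 when the trend of length and GC was removed (range 1.97e-08 to 0.00650 over 16 alternatives). GOPC, which binds golgin-160, also fell without overlap (log2 fold change -0.31, SE 0.0731, edgeR adjusted p = 0.00679), though it shares 547 exonic bases with another gene on the same strand. The other lower members each lost their call when some single library was left out: CCDC186 (-0.34, edgeR adjusted p = 0.00637) without control 2 (0.0545), and GOLIM4 (-0.31, edgeR adjusted p = 0.0197), whose groups overlapped, without control 1 (0.105), control 2 (0.0853) or IRE1-treated replicate 2 (0.117). USO1, the gene of p115, and BICD1 were named after their values were seen. USO1 (-0.16, edgeR adjusted p = 0.0359) did not pass without control 1 (0.181), control 2 (0.135) or IRE1-treated replicate 2 (0.138), and BICD1 (-0.34, edgeR adjusted p = 0.0488) did not without control 1 (0.253), control 3 (0.128), IRE1-treated replicate 1 (0.0635) or IRE1-treated replicate 2 (0.172). Of 9 golgin-bound adaptors 4 were lower (ACBD3, FAM91A1, CLASP1 and CLASP2) and 0 higher, beside the same shares, with 1 higher at an unadjusted p under 0.05 in edgeR, DESeq2 and limma. ACBD3, which binds giantin, had 987, 992 and 944 normalized counts in the controls and 713, 733 and 796 in the IRE1-treated samples, apart in every pair. ACBD3 fell by 0.38 on the log2 scale (SE 0.0627, edgeR adjusted p = 0.000728), and by 0.32 with the trend of length and GC removed (edgeR adjusted p = 0.000972, range 1.07e-06 to 0.00904 over 16 alternatives). CLASP2, a microtubule-binding partner of GCC185, and FAM91A1, which works with TBC1D23 at the trans-Golgi golgins, had log2 fold changes of -0.50 and -0.36 (edgeR adjusted p = 0.00214 and 0.00102), and with the trend of length and GC removed -0.28 and -0.18 (edgeR adjusted p = 0.0287 and 0.0745), so that only CLASP2 still passed. CLASP1 (-0.22, edgeR adjusted p = 0.0160) lost its call without control 1 (0.0815), control 3 (0.0543) or IRE1-treated replicate 2 (0.0781), and with the trend removed it stood at -0.0047 (edgeR adjusted p = 0.975).

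The GTPases that recruit golgins and their activators had 2 lower members and 1 higher, ARF5, of 16, or 12.5% and 6.25% beside 12.4% and 10.3% of all tested genes. With the trend of length and GC removed 0 were lower and RAB2A alone was higher. ARF5 had 2310, 2431 and 2354 normalized counts in the controls and 3031, 2822 and 2628 in the IRE1-treated samples, with no overlap (log2 fold change 0.26, SE 0.0555, edgeR adjusted p = 0.00414), but 0.08 with that trend removed (edgeR adjusted p = 0.268), and it shares 292 of 1825 exonic bases with FSCN3 on the same strand and faces GCC1 on the opposite strand. Among the lower members, RAB33B (-0.48, edgeR adjusted p = 0.0298), with a mean of 87.8 normalized counts, was named after its value was seen, and it passed only with all 6 libraries or without IRE1-treated replicate 3 (edgeR adjusted p = 0.0159, and 0.0655 to 0.101 without any other library). ARL1, which places GOLGA1 and GOLGA4 on the membrane, had a log2 fold change of 0.03 (edgeR adjusted p = 0.764), and it too was named after its value was seen.

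The multisubunit tethers were counted by complex. The COG complex had 0 of 8 and the GARP complex 0 of 4 members past the threshold in edgeR, beside 12.4% lower and 10.3% higher over all tested genes, which lists this short cannot be told from, with 1 lower at an unadjusted p under 0.05 in each, while limma called 1 GARP gene lower and DESeq2 none. Of 14 TRAPP genes 3 were lower (TRAPPC8, TRAPPC10 and TRAPPC11) and 5 higher (TRAPPC1, TRAPPC2L, TRAPPC3, TRAPPC4 and TRAPPC6A), or 21.4% and 35.7% beside 12.4% and 10.3% of all tested genes, and none passed with the trend of length and GC removed, when 3 were lower and 2 higher at an unadjusted p under 0.05, beside 10.6% and 13.2% of all tested genes. TRAPPC10, TRAPPC4 and TRAPPC6A kept their calls whichever library was left out, with log2 fold changes of -0.31, 0.23 and 0.35 (edgeR adjusted p = 0.00302, 0.00328 and 0.00284). TRAPPC10 shares 3625 of 11951 exonic bases on the same strand with ENSG00000280433, annotated as an artifact, and TRAPPC4 faces SLC37A4 over 868 exonic bases, so some of their reads could belong elsewhere. Among the rest, TRAPPC1, named after its value was seen, lost its call without control 1 (edgeR adjusted p = 0.0809) or control 2 (0.0575), TRAPPC8 without control 1 (0.0675), TRAPPC3 without control 1 (0.0695) or control 2 (0.0833), and TRAPPC2L without control 3 (0.0764) or IRE1-treated replicate 2 (0.0597). TRAPPC11 lost it without any of the 3 controls (0.0968, 0.0519 and 0.0558) or IRE1-treated replicate 2 (0.0781). Of 11 Golgi SNAREs 2 were higher (18.2%, beside 10.3% of all tested genes), STX10 (0.21, edgeR adjusted p = 0.00584) and STX5 (0.16, edgeR adjusted p = 0.0417), and 0 lower, also at an unadjusted p under 0.05 and in DESeq2 and limma. STX5 lost its call without any 1 of 5 libraries, all but IRE1-treated replicate 3 (edgeR adjusted p from 0.0533 to 0.160). With the trend of length and GC removed 0 SNAREs were higher, STX10 standing at 0.07 (edgeR adjusted p = 0.322), and STX10 also missed the threshold with library size only (edgeR adjusted p = 0.0556). DESeq2 called only STX10.

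**Figure D4:**
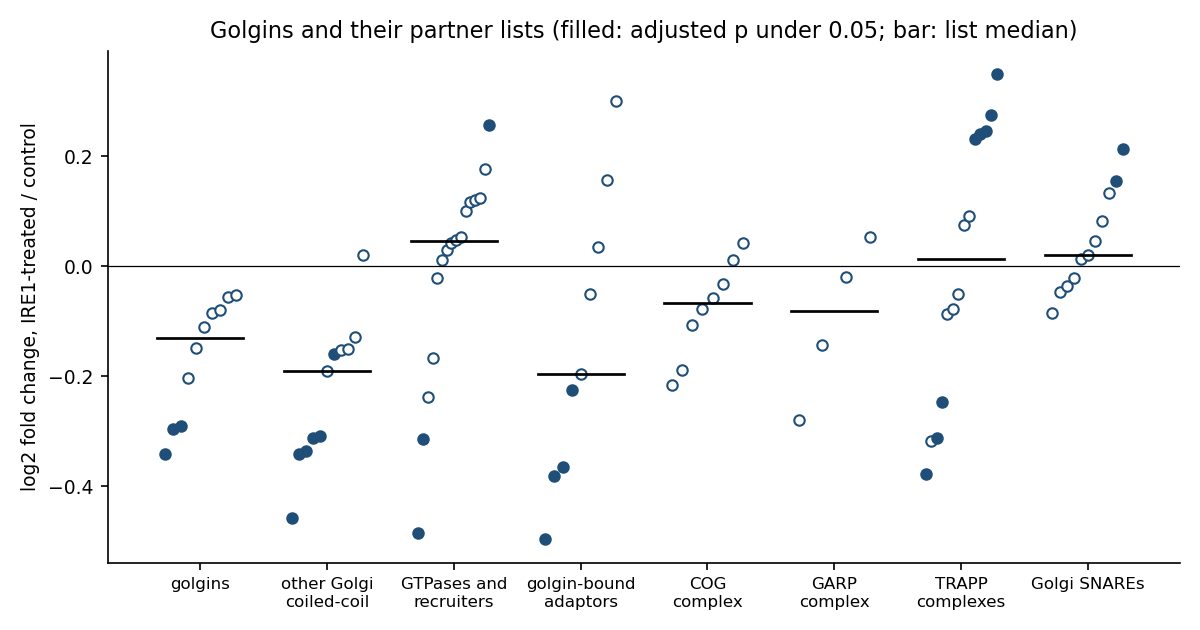
Log2 fold change (vertical axis, IRE1-treated over control, edgeR with TMM) of each golgin and each partner gene, by list; filled points had an adjusted p under 0.05 and bars are list medians. Golgins are all negative with a median of -0.13, a direction that turned for GOLGB1, GOLGA1, GOLGA3 and TRIP11 with the trend of length and GC removed, and TRAPP genes are found on both sides.

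The plot by list sets the golgins beside their partners on 1 scale. The lowest golgin, GCC2 at -0.34, lies above the lowest adaptor, CLASP2 at -0.50.

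Scaling moved the golgin results more than the choice of test. Over all tested genes, TMM scaling gave 1781 lower and 1489 higher genes (54.5% of calls lower), library size only gave 2596 and 683 (79.2%), and the fit without the trend of length and GC gave 651 and 858 (43.1%). The golgin estimates moved with the scaling by differing amounts: GCC2 was -0.42 with library size, -0.34 with TMM and -0.11 without the trend, TRIP11 was -0.15, -0.08 and 0.22, and GOLGA5, which the trend removal hardly moved, was -0.13, -0.06 and -0.05. DESeq2, upper quartile scaling, limma on the authors' CPM and a stricter filter each called GOLGA4, GCC2 and TMF1 and no other golgin. With no filter on low counts GOLGB1 and GOLGA3 were called lower as well, 5 of 10 golgins beside 8.17% of all genes in that fit, and 0 were higher beside 5.68%.

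**Figure D5:**
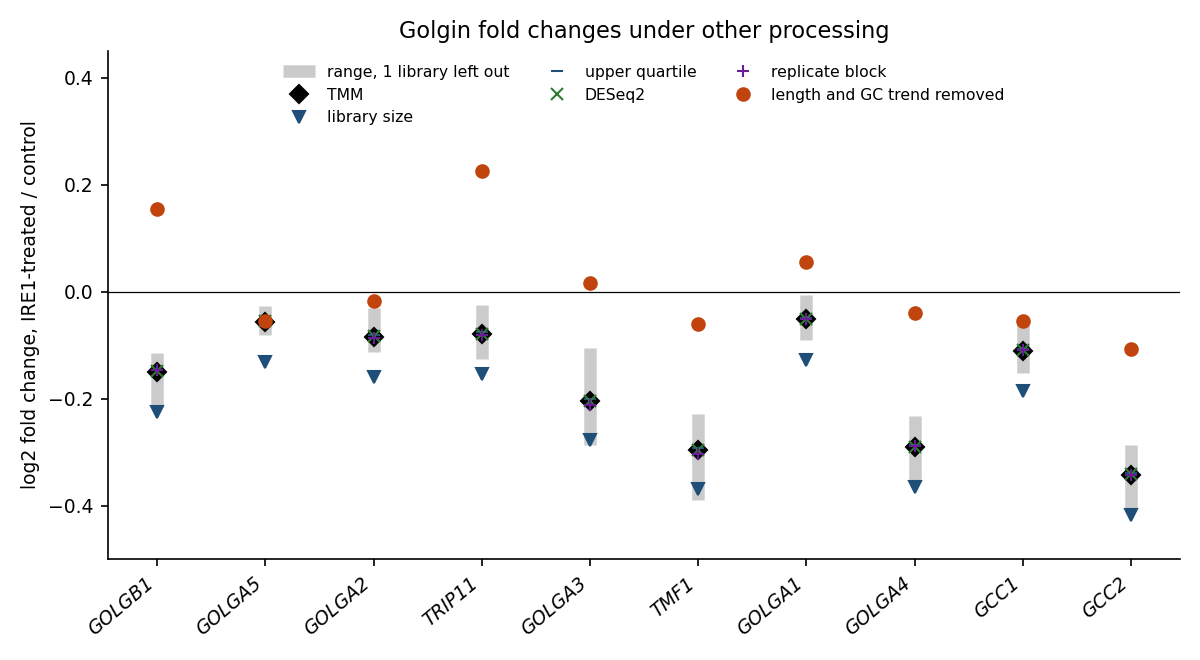
Log2 fold change of each golgin (vertical axis, IRE1-treated over control) under 6 fits, with grey bars for the range when 1 library was left out. Estimates are negative for all 10 golgins under each fit drawn except the fit with the trend of length and GC removed, where GOLGB1, GOLGA1, GOLGA3 and TRIP11 lie above 0, TRIP11 at 0.22.

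The plot of fits shows the distance between library size and the fit without the trend for each golgin. It is widest for GOLGB1, TRIP11 and GOLGA4 and narrowest for GOLGA5, the shortest golgin.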

How the data were processed

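RNA-seq was done on 3 control and 3 IRE1-treated samples. The authors deposited raw counts per Ensembl gene for each library, and also CPM values that they had normalized, for 12558 genes. The submitters' processing notes name cutadapt 1.12, STAR 2.5.3a, HTSeq 0.6.1p1, edgeR 3.24.3 and hg19; how HTSeq treated strand and overlaps is not given in the sources used here. The 5 HTSeq summary lines (21.4 to 23.2% of all counts) were left out. The 10 golgins and the partner lists were chosen with earlier results of these data known.

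Counts were tested with edgeR 4.0.16 (R 4.3.3): its low-count filter kept 14398 of 24945 detected genes, followed by TMM factors (1.03, 1.03 and 1.02 in controls, 0.947, 0.980 and 0.996 in IRE1-treated replicates), the quasi-likelihood test without covariates, and Benjamini-Hochberg adjustment with a threshold of 0.05. Normalized counts are at the scale of the mean library. Depth was 19615715 to 25678499 counts on genes. The chi-square per gene between libraries was above 1 for every pair (lowest 2.21), which means that none duplicated another. Exact permutation tests used scipy 1.17.1 in Python 3.11.15. Gene names, lengths, GC content and sequences were taken from GENCODE 44 (GRCh37), which named 55538 gene identifiers and gave a length for 98.0% of tested genes. Near-identical stretches (at least 100 bases at 95% identity) were found with BLAST 2.17.0, and motif windows (15 bases on either side) were folded with ViennaRNA 2.7.2. The fit and the folding were also run on simulated data, with an outcome that is not reported here. Figures were drawn with matplotlib 3.10.9.

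The genes named are the 10 golgins, XBP1 and BLOC1S1, in each partner list up to 4 genes per direction with the lowest adjusted p among those past the threshold with at least 100 normalized counts, and the 5 genes nearest in profile; not every gene that met this rule is reported here, and RAB2A, RAB33B, ARL1, TRAPPC1, USO1 and BICD1 were named outside it. The alternatives, 16 fits in all, were DESeq2 1.42.0, upper quartile scaling, scaling by library size only, no filter or a minimum of 10 counts in every library, limma 3.58.1 on log2(CPM + 1) and log2(CPM + 0.1), removal of each library's loess trend (span 0.5) with length and GC, a replicate block alone or with that removal, and fits that left out 1 library.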

Additional observations from a re-analysis of the deposited data

How the results depend on the processing

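Over 16 alternatives for each of 10 golgins, 134 of 160 log2 fold changes kept their direction and their side of the threshold, 7 passed it newly, 11 no longer passed and 8 turned sign. For 19 named partners, 239 of 304 kept both and 65 no longer passed. The sign turned only where the trend of length and GC was removed, for GOLGB1 (0.15, and 0.16 with the replicate block as well), GOLGA1 (0.0556 and 0.0566), GOLGA3 (0.0167 and 0.0093) and TRIP11 (0.22 and 0.23). That fit gave 651 genes lower and 858 higher, 0 golgins lower and 2 higher, 4 partners lower and 1 higher. With the replicate block added the values were 531, 745, 0, 1, 3 and 1, and 0 golgins were lower at an unadjusted p under 0.05 in either fit. With library size only, 683 genes were higher, 5 golgins lower and 4 partners higher. With no filter, 5 golgins were lower, beside 8.17% of all genes. With 1 library left out, genes lower ranged from 972 to 2221, genes higher from 638 to 2091, golgins lower from 0 to 5, partners lower from 7 to 20 and partners higher from 5 to 12. The causes were not tested, except that fewer libraries entered the last fits.

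Same-numbered libraries showed no shared deviation: their deviations from the group means correlated at -0.04, -0.01 and -0.11 across 14398 genes. Differently numbered pairs of a control and an IRE1-treated library gave -0.06 to 0.09. Whether equal numbers share a culture is not stated, and these correlations cannot settle it. The replicate block gave 1496 genes lower and 1117 higher, and 3 golgins lower, GOLGA4, GCC2 and TMF1. Of the partners named here, STX5 no longer passed with the replicate block.

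The golgin counts sum both sides of any cut, rest on 3 libraries a group and move with 1 library and with scaling. At 350 to 2633 counts per golgin and library, differences of about the size of the SEs given could not be resolved.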
